A study of Hordeum vulgare subsp. vulgare with 8 samples.

Results

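Alternative 3' splicing (A3S) joins the same upstream exon to a nearby second acceptor, so that the downstream exon starts at another base. The events described here were those with the annotated and the alternative acceptor 4 or 5 nt apart. They were chosen from the A3S lists of all 8 libraries by the difference in length between the annotated exon and its alternative form, and events of different libraries were counted as one when they shared the gene and the starts and ends of all 3 exons. There were 604 such events among 5473 distinct A3S events, in 567 of 3574 genes with A3S, and they made up 1194 of 10712 list entries. The acceptors were 4 nt apart in 324 events and 5 nt apart in 280.

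The spliceosome defines the end of an intron by a branch point, a run of pyrimidines and a closing AG dinucleotide, and where AGs lie close together it can cut at either. In plants as in animals, acceptors a few bases apart are among the most common forms of alternative splicing. Since neither 4 nor 5 is a multiple of 3, the use of the second acceptor inside a coding sequence shifts the reading frame, and such transcripts often meet an early stop codon and may be degraded by nonsense-mediated decay. Whether an exon was coding is not given in the lists.

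The libraries were made from germinating embryos of the barley varieties Bass, Harrington, Stirling and Baudin, collected after 24 h and 48 h of imbibition at 21 °C in the dark and separated from the endosperm. Each variety gave 1 library per time from pooled embryos, so spread could be measured only over the 4 varieties, where it holds their genetic differences as well as those between samples. No mutant or transgene was used, and the seeds of all groups came from the same field trial, were sterilised with hypochlorite and took up plain water. The lists hold only exons with a called event, so the tissue could not be checked against marker genes.

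Every library held between 1150 and 1712 A3S events, with a median depth of the annotated exon between 27.6 and 34.4 reads. Depth is the mean number of reads over a covered base of an exon and was not scaled for library size. Reads across the splice junctions are not in the lists, and an event absent from a list was not called there, which is not a measured 0. A lower number of cells of a type and less RNA in each cell cannot be told apart in such whole-embryo samples. With 4 varieties the exact paired permutation test (sign flips, two-sided) cannot give a p-value under 0.13. Apart from alternative settings, 24 paired comparisons were made, of which 18 gave this smallest p-value. None had a Benjamini-Hochberg adjusted p under 0.17. Exact p-values of alternative settings, such as either distance alone, a minimum depth or measuring back from 48 h, are not among these 24 and were not adjusted. No difference tested in this way could pass a threshold of 0.05, so the differences below are given by their size, their spread and the number of varieties that showed them.

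In most events the alternative acceptor lay inside the annotated exon. The alternative exon was shorter in 497 events and longer in 107, which was 17.7% of the events. The 4 and 5 nt distances differed in this. At 5 nt, 64 of 280 events (22.9%) had a longer alternative exon, and at 4 nt 43 of 324 (13.3%). Just outside the chosen distances, 110 of 466 events at 3 nt (23.6%) and 23 of 267 events at 6 nt (8.61%) were longer. The far end of the exon was the same in both forms of every entry.

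**Figure D1:**
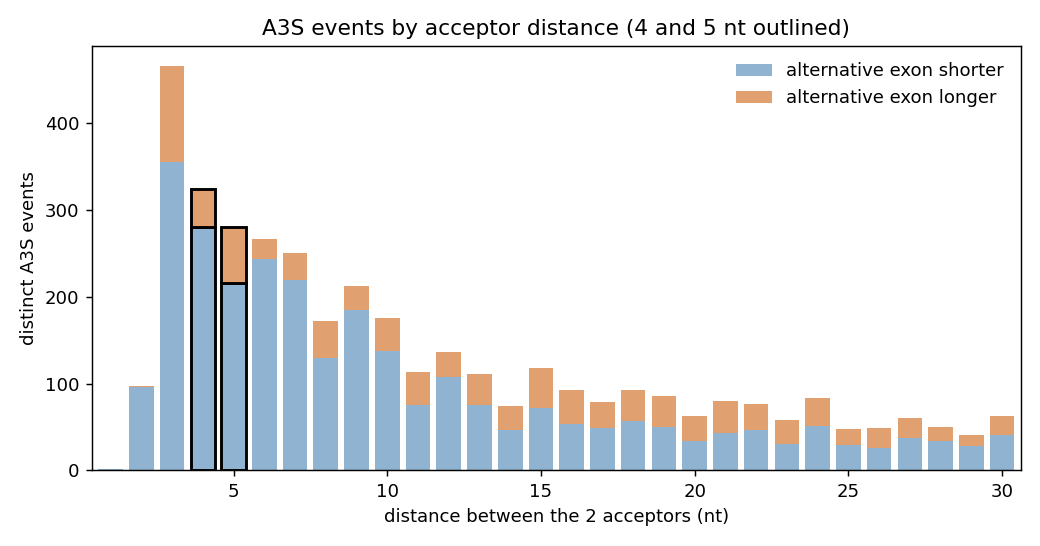
Number of distinct A3S events (y axis) at each distance between the annotated and the alternative acceptor from 1 to 30 nt (x axis), split into alternative exons that are shorter (blue) and longer (orange). The outlined bars at 4 nt (324 events) and 5 nt (280 events) follow the highest bar at 3 nt (466 events), and the longer share is larger at 5 nt than at 4 nt.

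The share of longer exons was also compared library by library, as the mean of the 2 times of each variety. At 5 nt Bass had 27.1%, Harrington 27.3%, Stirling 30.7% and Baudin 30.5%. At 4 nt it was 12.3%, 11.9%, 19.6% and 16.1% in the same order. All 4 values at 5 nt lay above all 4 values at 4 nt, and the difference was 14.0 ± 1.94 percentage points (SD, n = 4 varieties; exact p = 0.13). For both distances together the share was 22.1% ± 2.37 (SD, n = 4), beside 22.2% ± 2.36 for acceptors 3 nt apart, and the difference of -0.055 points was well inside its SD of 0.64 (exact p = 0.75). Of the frame-shifting acceptors 7 to 29 nt apart 35.7% were longer, and the difference from these was -13.6 ± 2.66 points, lower in 4 of 4 varieties (exact p = 0.13). Against the 3 nt acceptors the 2 distances went opposite ways in these library shares, with differences of -7.23 points at 4 nt and 6.73 points at 5 nt, each in 4 of 4 varieties (exact p = 0.13 for both). Library shares count an event once in every library that lists it. Over distinct events the longer share was 22.9% at 5 nt and 23.6% at 3 nt, so 5 nt was not above 3 nt. It was 17.7% for 4 and 5 nt together, below that at 3 nt, so the 2 ways of counting differ here.

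Fewer 4 or 5 nt events were listed at 48 h than at 24 h in every variety. The 24 h lists of Bass, Harrington, Stirling and Baudin held 204, 134, 175 and 178 of them. Those of 48 h held 141, 112, 118 and 132 in the same order. Bass had the most and Harrington the fewest at both times, and Harrington at 24 h lay below Bass at 48 h, so the 2 times overlapped. The paired difference was -47 ± 18.1 events (SD, n = 4; exact p = 0.13).

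All A3S lists were shorter at 48 h, so the events were also taken as a share of the A3S events of their library. At 24 h Bass had 11.9% (95% Wilson interval 10.5 to 13.5, counting error only), Harrington 11.0%, Stirling 12.1% and Baudin 11.8%. At 48 h Bass had 11.7%, Harrington 9.74% (8.16 to 11.6), Stirling 9.98% and Baudin 10.2%. It was lower at 48 h in 4 of 4 varieties, with a difference of -1.29 ± 0.793 points (exact p = 0.13), but that in Bass was -0.215 points. The lower share lay mostly in the 4 nt events, which made up 5.94% of A3S events at 24 h and 4.88% at 48 h (lower in 4 of 4 varieties, exact p = 0.13), against 5.76% and 5.54% for the 5 nt events (lower in 3 of 4, exact p = 0.5). With a minimum depth of 10 this was less clear. The difference was then -0.72 points at 4 nt (lower in 3 of 4 varieties, exact p = 0.25) and -0.37 points at 5 nt (lower in 3 of 4, exact p = 0.5). Over the same interval the share of 3 nt acceptors was 1.47 ± 0.132 points higher, from 13.6% to 15.1%, in 4 of 4 varieties (exact p = 0.13). For the 4 or 5 nt events the median exon depth was 27.2 ± 1.97 reads (SD, n = 4) at 24 h and 24.4 ± 1.46 at 48 h, lower in 3 of 4 varieties, and the part of depth in the shorter lists was not tested.

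**Figure D2:**
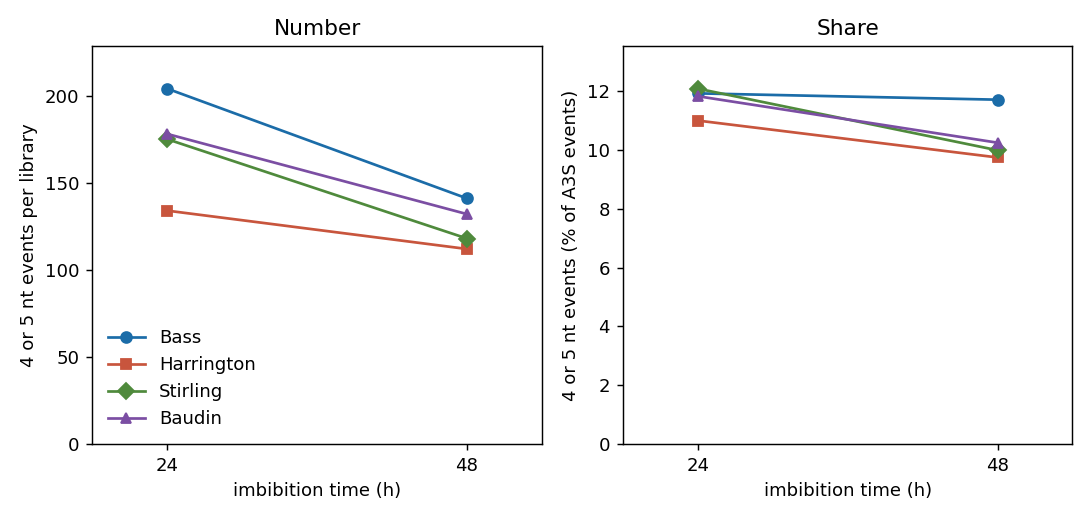
Number of 4 or 5 nt events per library (left) and their share of the A3S events of the same library (right) at 24 h and 48 h of imbibition, 1 line per variety. Both were below their 24 h value in all 4 varieties, least in share in Bass (11.9% and 11.7%).

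Most events were seen once. There were 361 events (59.8%) in 1 library, where 62.1% of all A3S events were in 1 library, and 123 in 2 libraries. Further along, 40 events were in at least 6 libraries (6.58% of all A3S events were) and 13 in all 8 libraries (2.48% of all A3S events were), so 6.62% and 2.15% of the 4 or 5 nt events are close to the background. By time, 274 events (45.4%) were listed at 24 h only, 166 (27.5%) at 48 h only and 164 (27.2%) at both. Over all A3S events these shares were 42.5%, 30.5% and 27.0%, so the split was near the background. By variety, 372 events were in 1 variety, 127 in 2, 39 in 3 and 66 in 4. Of all 5473 A3S events, 3514 were in 1 variety, 988 in 2, 455 in 3 and 516 in 4. At 24 h 74 events were in at least 3 varieties, where the background over all A3S events was 10.7%, and at 48 h 48 events were, with a background of 8.64%.

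The 4 or 5 nt acceptors were listed in several varieties less often than those 3 nt apart, in each of the 4 varieties. Of the events of a library, 35.7% ± 3.40 (SD, n = 4 varieties) were also listed in at least 2 other varieties at that time. The difference was -27.0 ± 1.79 points from 3 nt events (62.7%) and 7.60 ± 2.52 points from frame-shifting events 7 to 29 nt apart (28.1%), each in 4 of 4 varieties (exact p = 0.13 for both). At 4 nt alone 28.3% recurred, beside the 28.1% of the 7 to 29 nt events, so the higher value was that of the 5 nt events. From all other A3S events together the difference was 1.22 ± 1.61 points, within its spread (exact p = 0.38). Of the events of a variety at 24 h, 27.0% ± 1.83 were listed again at 48 h, with differences of -27.8 ± 3.87 points from 3 nt events and 2.70 ± 1.75 points from the 7 to 29 nt events, again in 4 of 4 varieties. At 4 nt alone 21.3% were listed again, below the 24.3% of the 7 to 29 nt events. The higher value was again that of the 5 nt events (33.0%). Against all other A3S events the difference of the 4 or 5 nt events together was -4.05 ± 2.54 points, lower in 4 of 4 varieties (exact p = 0.13). It was -9.79 points for the 4 nt events alone and 1.87 points for the 5 nt events alone. Measured back from 48 h to 24 h the same difference was -0.154 points (exact p = 0.88).

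**Figure D3:**
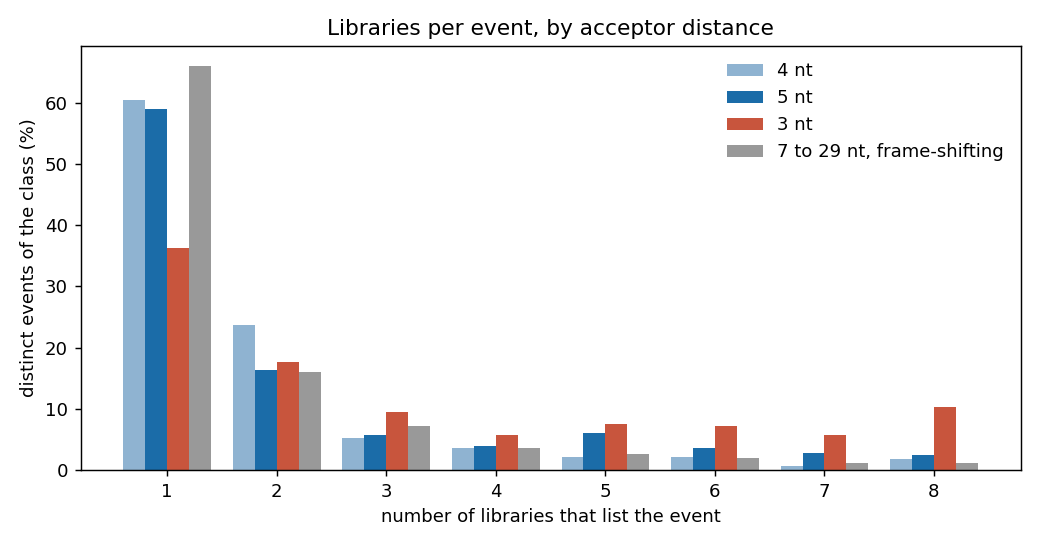
Share of the distinct events of each acceptor distance (y axis, percent) that were listed in 1 to 8 libraries (x axis). About 60% of the 4 nt and 5 nt events were in 1 library, as against 36.3% of the 3 nt events, and 10.3% of the 3 nt events but 1.85% of the 4 nt and 2.50% of the 5 nt events were in all 8.

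Events at 5 nt were listed more widely than events at 4 nt. The share also listed in at least 2 other varieties at 5 nt was 35.2%, 41.9%, 48.2% and 46.1% in Bass, Harrington, Stirling and Baudin. At 4 nt it was 26.1%, 35.0%, 25.7% and 26.6% in the same order. The lowest value at 5 nt lay just above the highest at 4 nt, and the difference was 14.5 ± 7.69 points (SD, n = 4; exact p = 0.13). It was 12.3 points when only exons with a depth of at least 10 in both forms were kept, higher in 4 of 4 varieties, and 11.8 to 17.1 with a variety left out of the mean. When listing was also recounted over the 3 remaining varieties, all of which then had to list an event, it was 5.06 points without Stirling and 6.48 without Baudin. Between times, 33.0% ± 4.12 of the 5 nt events of a variety at 24 h were listed again at 48 h, and 21.3% ± 0.420 of the 4 nt events, a difference of 11.7 ± 4.38 points in 4 of 4 varieties (exact p = 0.13). The annotated exons of the 5 nt events were read less deeply, with a difference in median of -0.28 ± 0.13 on the log2 scale, lower in 4 of 4 varieties (exact p = 0.13), so the more widely listed class was the shallower one.

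Longer exons recurred more than shorter ones. The share of longer events also listed in at least 2 other varieties was 52.4% ± 5.18 (SD, n = 4), and that of shorter events 31.0% ± 3.64, a difference of 21.4 ± 5.67 points in 4 of 4 varieties (exact p = 0.13). Because longer exons were more frequent at 5 nt, the distances were also compared within each direction. Among shorter events 5 nt was 11.5 ± 7.80 points above 4 nt in 4 of 4 varieties (exact p = 0.13). Among longer events it was 12.1 ± 13.3 points above in 3 of 4 varieties (exact p = 0.25), and 6.92 points without Stirling in the mean. When listing in all 3 remaining varieties was asked for, the difference among longer events was below 0 without Bass, Stirling or Baudin, and among shorter events it was 4.84 to 15.9 points.

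**Figure D4:**
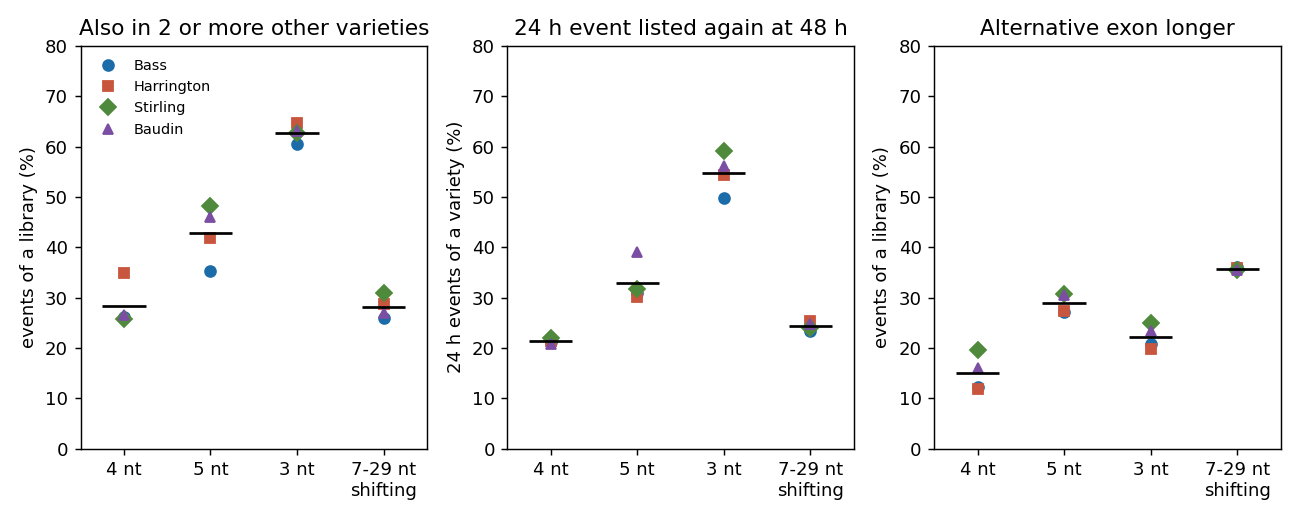
Share of events also listed in at least 2 other varieties at the same time (left), of 24 h events listed again at 48 h (middle) and of events with a longer alternative exon (right), by acceptor distance; each symbol is a variety and each bar the mean of 4. In the left and middle panels the 5 nt events lie above the 4 nt events in every variety and both lie below the 3 nt events.

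The exons were read less deeply than those of other A3S events. By library, the median over the annotated exons was between 22.7 and 29.99 reads for the 4 or 5 nt events and between 27.8 and 35.5 for the others, a difference of -0.28 ± 0.070 on the log2 scale, lower in 4 of 4 varieties (exact p = 0.13). Over single entries, depth ranged from 2 to 4829. Taken per event, as the median over the libraries that listed it, depth had a median of 21.5. It was under 10 in 31.5% of the 4 or 5 nt events and in 20.7% of other A3S events. The median was 17.4 for events in 1 library, 26.3 for those in 2 to 5 and 29.95 for those in at least 6. Widely listed events were therefore the more deeply read ones, and only 95 events reached a depth of 100 and 10 a depth of 1000.

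Introns had about the length of those of other A3S events and exons were somewhat shorter, without a test. The intron before the annotated acceptor had a median length of 154.5 nt, from 65 to 3638 nt, and was under 100 nt in 171 events, and the median over other A3S events was 156 nt. The annotated exon had a median length of 138 nt, against 159 nt in other A3S events, and 8 exons were shorter than 30 nt. The plus strand held 311 of the 604 events. Between 9.04% and 13.5% of the A3S events of each of the 9 linkage groups with at least 100 A3S events were 4 or 5 nt events. Of the 567 genes, 530 had 1 such event and 37 had 2, 272 (48.0%) also had an A3S event at another distance, and 193 (34.0%) had an alternative 5' splicing (A5S) event, which was so for 28.7% of the other 3007 A3S genes.

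In 69 events (11.4%) the same exon was listed with at least 1 further acceptor. These exons had 82 other acceptors, of which 48 lay 6 to 30 nt and 29 more than 30 nt from the annotated one, and 22 kept the reading frame. In a single exon, the 60 nt exon of MLOC_36820.1 on linkage group LG15 (66291555 to 66291614, plus strand), both neighbours were 4 nt away, 1 on each side. This gene is described as a glutathione S-transferase 2, an enzyme class that joins glutathione to reactive compounds. Its downstream acceptor was listed in all 8 libraries, at depths of the annotated exon, in the order Bass, Harrington, Stirling, Baudin, of 36.9, 9.75, 21.6 and 15.9 at 24 h and 33.8, 10.8, 26.2 and 32.0 at 48 h. Harrington had the lowest depth at both times. The upstream acceptor was listed only in Harrington at 24 h and in Stirling at 48 h. In both of these libraries the depth computed for its 4 added bases, as described below, was below 0.

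A relative depth was computed for the stretch of 4 or 5 bases between the acceptors, as its depth divided by that of the rest of the exon, with 0.5 added to both. Where every transcript used the inner acceptor it would lie near 0. Its median was 0.25 in shorter events and 0.30 in longer ones. The stretch depth came out below 0 and was set to 0 in 195 of 932 entries with a shorter and 21 of 262 with a longer exon, so it was close to what these depths can resolve. In shorter events the median over all distances was 0.20 at 3 nt, 0.41 at 11 to 29 nt and 1.03 at 100 nt and over, so values at different distances are not on the same footing, and the relative depth is not a measure of the share of transcripts.

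Of the 13 events listed in all 8 libraries, 8 had the shorter and 5 the longer alternative exon. MLOC_55595.2 on LG01 (annotated exon 59645254 to 59645377, minus strand, alternative exon 4 nt shorter) had the most deeply read annotated exon, beside 41.2 to 87.6 in its upstream exon. It is described as 40S ribosomal protein S7, a part of the small ribosomal subunit. In the order Bass, Harrington, Stirling, Baudin, its annotated exon had depths of 695, 816, 831 and 946 at 24 h and of 916, 831, 970 and 923 at 48 h. The unscaled depth was lower at 48 h in Baudin and higher in the other varieties, and the 2 times overlapped. Relative to the library medians the depth was higher at 48 h in 4 of 4 varieties, Baudin included. The difference was 0.29 on the log2 scale (SE 0.23), which did not pass the test (limma, Benjamini-Hochberg adjusted p = 0.36). The relative depth of its 4 bases was between 0.15 and 0.24 in every library. The same exon had a further acceptor 24 nt downstream, which keeps the frame.

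MLOC_5591.3 on LG04 (42417099 to 42417217, minus strand) had an alternative exon 4 nt longer and is described as an arginine--tRNA ligase, which loads arginine onto its transfer RNA. Depths were 142, 193, 160 and 163 at 24 h and 73.8, 116, 155 and 177 at 48 h in Bass, Harrington, Stirling and Baudin. Bass at 48 h was the lowest, Harrington at 24 h the highest, and the relative depth was between 0.11 and 0.20. MLOC_18973.4 on LG04 (114581941 to 114582088, plus strand, 5 nt shorter) is described as a protein-tyrosine sulfotransferase, which adds sulfate to tyrosines of secreted proteins. Its depths were 122, 110, 99.8 and 118 at 24 h and 71.8, 73.4, 77.9 and 81.0 at 48 h, so that the 4 values at 24 h lay above the 4 at 48 h. Relative to the library medians the difference was -0.42 on the log2 scale (SE 0.23), which did not pass the test (limma, Benjamini-Hochberg adjusted p = 0.21).

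Among the other events in all 8 libraries, the relative depth of the stretch differed widely between genes. It was between 0.48 and 0.61 for MLOC_51956.1 (LG01, 4 nt shorter, exon depth 52.4 to 155), between 0.56 and 0.75 for MLOC_4847.3 (LG04, 5 nt longer, 79.1 to 189) and between 0.62 and 0.72 for MLOC_58938.3 (LG01, 5 nt shorter, 33.3 to 87.0), whose annotated exon was 18 nt long. MLOC_64959.3 (LG01, 5 nt shorter) lay between 0.28 and 0.53, and MLOC_59424.4 (LG01, 4 nt longer) between 0.20 and 0.50. MLOC_11266.1 (LG10, 5 nt longer) stood apart: its relative depth was between 0.0079 and 0.023, since the computed depth of the added bases was below 0 in 7 of 8 libraries, although the exon itself had depths of 37.7 to 63.1. The widest range was that of MLOC_62518.2 (LG01, 5 nt shorter, exon depth 3.05 to 24.9), from 0.088 in Harrington to 0.82 in Bass, both at 48 h. The Harrington value came from a stretch depth below 0 that was set to 0, and the Bass value rests on an exon depth of 3.05. MLOC_78375.1 (LG03, 4 nt longer, 19.4 to 45.5) ranged from 0.19 in Harrington at 48 h to 0.73 in Harrington at 24 h.

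The relative depth at 48 h and 24 h was compared with limma, with variety as a block, over the 136 A3S events in all 8 libraries. None of these passed an adjusted p of 0.05 (percent called 0), and 15 had an unadjusted p under 0.05. None of the 13 events with 4 or 5 nt passed either. The median log2 difference of the 13 was 0.01, beside -0.03 over all 136. The smallest adjusted p among them belonged to MLOC_71896.1 (LG01, 4945191 to 4945309, plus strand, 5 nt shorter), the 13th of them in depth, which is named because of this value. Its relative depth was 0.16, 0.079, 0.24 and 0.19 at 24 h and 0.68, 0.53, 0.32 and 0.22 at 48 h in Bass, Harrington, Stirling and Baudin. It was higher at 48 h in each variety, by 1.37 on the log2 scale (SE 0.50; limma, adjusted p = 0.40), but the groups overlapped and the exon had depths of 2.49 to 13.8 only. The values of Harrington and Baudin at 24 h came from stretch depths below 0 that were set to 0. They are set by the exon depth and the added 0.5, so the size of the rise in these varieties is uncertain.

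**Figure D5:**
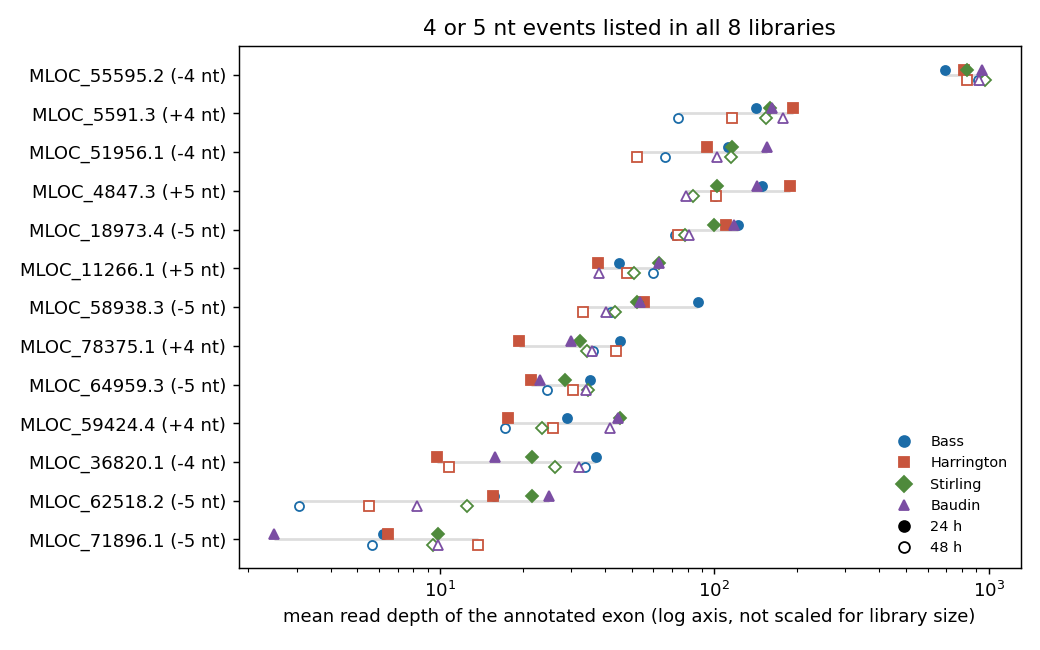
Mean read depth of the annotated exon (x axis, log scale, not scaled for library size) of the 13 events with acceptors 4 or 5 nt apart listed in all 8 libraries, at 24 h (filled) and 48 h (open), by variety; the sign gives whether the alternative exon is longer or shorter. MLOC_55595.2 (695 to 970 reads) lies apart at the top, and in MLOC_62518.2 all 4 values at 48 h lie below those at 24 h.

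The depth of the annotated exon itself was compared in the same way, after centring each library on its median over these events. Here 33 of the 136 events passed (24.3%), 15 of them higher at 48 h (11.0%) and 18 lower (13.2%). Of the 13 events with 4 or 5 nt, 1 passed, a smaller share than this background. It was MLOC_62518.2 (LG01, 116330326 to 116330428, plus strand, 5 nt shorter), whose depths were 15.7, 15.6, 21.6 and 24.9 at 24 h and 3.05, 5.49, 12.5 and 8.27 at 48 h in Bass, Harrington, Stirling and Baudin. All values at 48 h lay below all values at 24 h, and the depth fell by 1.42 on the log2 scale (SE 0.29; limma, adjusted p = 0.0054). The depth of its upstream exon differed by -0.50 (SE 0.21) and did not pass (adjusted p = 0.16), so the 2 exons of the event gave different calls. MLOC_71896.1 was 0.86 higher on the log2 scale (SE 0.34), with an adjusted p of 0.080.

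Among events in at least 3 libraries, those with the most deeply read annotated exon lay in ribosomal protein genes and in a pair of genes without a description. MLOC_5129.1 (LG04, 38707954 to 38708110, minus strand, 4 nt shorter), described as 60S ribosomal protein L35, was listed in 5 libraries. Harrington, Stirling and Baudin had depths of 4829, 4073 and 3515 at 24 h, Harrington and Baudin had 4374 and 3797 at 48 h, and Bass did not list it at either time. The computed depth of its 4 bases was below 0 in all 5 libraries. MLOC_32946.1 (LG05, 101518701 to 101518902, plus strand, 5 nt longer), described as 60S ribosomal protein L7a, was listed at 24 h in Bass at 3102, in Stirling at 3313 and in Baudin at 2731. It was in no library at 48 h, although the gene had another A3S event there in all 4 varieties. The upstream exon of this L7a event had depths of only 2.10 to 5.73 in the libraries that listed it. That of the L35 event had 2149 to 3006. The depth of the annotated L7a exon therefore does not show how well the junction itself was read. This limit holds for other events too. The upstream exon was far shallower than the annotated one in MLOC_55595.2 (41.2 to 87.6), MLOC_18973.4 (5.57 to 11.7) and MLOC_58938.3 (2.98 to 11.4). It was the deeper one in MLOC_59424.4 (84.2 to 165) and MLOC_62518.2 (28.3 to 75.9). L35 and L7a both belong to the large ribosomal subunit.

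Gene descriptions, from the study's lists of genes whose splicing was common to several varieties, covered 138 of the 567 genes and so lean towards widely listed genes. Ribosomal proteins were the most deeply read group: 7 of the 25 described A3S genes of this group had a 4 or 5 nt event (28.0%), beside 138 of 731 over all described genes (18.9%), and the median depth of their 8 events was 612, beside 30.3. These were both S7 genes, L35, L7a, L3, S17 and a gene described only as a ribosomal protein. Words for translation matched 8 of 19 genes (42.1%), of which 6 were in 1 library only. They held the arginine and methionine tRNA ligases, 3 subunits of initiation factor 3, which prepares the small subunit for messenger RNA, and initiation factor 5A. The others, RRN3 and SPT6, act in transcription and matched by the words initiation and elongation factor.

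The other groups were read at median depths of 17.4 to 45.5. Signalling words matched 16 of 79 genes (20.3%), among them dual protein phosphatase 4 (MLOC_7084.3, 6 libraries, median depth 19.8) and auxin response factor 18 (MLOC_58330.2, 1 library, 46.8), a transcription factor of the auxin pathway. They also matched enzymes of vitamin metabolism such as thiamin pyrophosphokinase 1 and riboflavin kinase, which are not signalling proteins. Protein turnover words matched 6 of 31 genes (19.4%), among them the ubiquitin-conjugating enzyme E2 N (MLOC_15173.1), with 1 event in 5 and another in 2 libraries. RNA processing words matched 3 of 25 genes, transcription and chromatin 7 of 42 (16.7%), transport and membrane 6 of 31 (19.4%) and metabolism 22 of 115 (19.1%). Of 31 genes that the study names in its text, captions and tables, 2 had a 4 or 5 nt event, and none of the 10 set out for naming did; both are named after their values were seen. MLOC_62759.3 (LG01, 118621419 to 118621523, plus strand, 4 nt shorter) is a serine/threonine kinase of the SnRK2 family, which acts in abscisic acid signalling, and was listed only in Bass at 48 h, at a depth of 57.5. MLOC_59332.2 had an event with the same exon lengths, so this listing and depth may not belong to the SnRK2 gene alone, as described below for such pairs. MLOC_61949.4 (LG01, 111371989 to 111372117, minus strand, 5 nt shorter) is a malate dehydrogenase, which converts malate and oxaloacetate, and was listed only in Stirling at 48 h, at 18.1.

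Some described genes with a known part in germination held such events and are named after their values were seen. An event of an alpha-amylase gene, MLOC_63781.2 (LG01, 126786414 to 126786532, minus strand, 5 nt longer), an enzyme that breaks down starch, was listed in 5 libraries at depths of 4.02 to 6.13. An expansin gene, MLOC_12906.1 (LG10, 82091766 to 82091950, plus strand, 5 nt shorter), whose protein loosens cell walls, had depths of 233, 418 and 420 in Bass, Harrington and Baudin at 24 h and of 124 and 158 in Bass and Harrington at 48 h. In these libraries both values at 48 h lay below the 3 at 24 h. The alpha-amylase event was thus among the shallowest and the expansin event among the deep ones.

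A small number of events were common at a single time. In at least 3 varieties at 24 h and in none at 48 h there were 11 events (1.57% of all A3S events were), and the reverse held for 5 (0.786%), which is 1.82% and 0.828% of the 604. MLOC_18370.2 (LG10, 143571228 to 143571335, minus strand, 4 nt shorter) is described as ARGONAUTE 1, which binds small RNAs and silences their targets. It was listed in all 4 varieties at 24 h, where Bass had a depth of 42.6, Harrington 38.6, Stirling 27.7 and Baudin 29.3, and the gene had no A3S event in any library at 48 h. MLOC_7800.2 (LG04, 4 nt shorter) showed the same listing at 28.3 to 39.5, and so did MLOC_56464.2 (LG01, 4 nt shorter) at 8.20 to 17.0. The latter is described as phosphatidylinositol-4-phosphate 5-kinase 9, an enzyme of membrane lipid signalling, and its gene had another A3S event at 48 h in 3 varieties.

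An event of MLOC_65439.1 (LG01, 143618222 to 143618317, plus strand, 5 nt longer), a serine carboxypeptidase that trims the ends of proteins, was listed at 24 h in Bass, Harrington and Baudin at depths of 103, 549 and 232. At 48 h MLOC_15115.1 (LG10, 4 nt longer) was listed in all 4 varieties at 17.0 to 21.3 and in none at 24 h. An amine oxidase gene, MLOC_4986.2 (LG04, 5 nt shorter), had depths of 85.1, 161 and 72.9 at 48 h in Harrington, Stirling and Baudin and was not listed in Bass or at 24 h. An asparaginase gene, MLOC_66166.11 (LG02, 5 nt longer), whose enzyme releases ammonia from asparagine, had 22.4, 21.3 and 39.7 in the same varieties. An AP-1 complex subunit mu gene, MLOC_37776.4 (LG15, 5 nt shorter), part of a coat that sorts vesicles, had 14.8 to 17.7, and MLOC_67316.2 (LG02, 5 nt longer) had 3.71 to 4.15. Of the 11 events at 24 h, 6 were in genes with another A3S event at 48 h, and of the 5 at 48 h, 1 was in a gene with another A3S event at 24 h.

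Events of the same exon lengths were found in 7 pairs of genes, all with a shorter alternative exon. The 2 genes of a pair had the same length of upstream exon, of annotated exon and of change, and no sequence was compared. The 40S ribosomal protein S7 genes MLOC_55595.2 and MLOC_65818.1 both had an upstream exon of 74 nt and an annotated exon of 124 nt with an acceptor 4 nt inside it, and their introns were 92 and 104 nt long. The event of MLOC_65818.1 was listed at 24 h only, at depths of 219 in Bass, 221 in Harrington and 199 in Stirling. MLOC_12106.1 and MLOC_13746.1, both on LG10, shared exons of 90 and 182 nt with an acceptor 5 nt inside, and had introns of 1021 and 1448 nt. MLOC_13746.1 had depths of 1855, 1138 and 1303 in Bass, Stirling and Baudin at 24 h and of 1087, 1130 and 1150 in Bass, Harrington and Stirling at 48 h. MLOC_12106.1 had 1186 and 796 in Harrington and Stirling at 24 h and 1099 and 1398 in Bass and Baudin at 48 h. Bass at 48 h and Stirling at 24 h listed both genes, and in each of the other 6 libraries 1 of the 2 was listed. The other 5 pairs were less widely listed, in at most 4 libraries. Among them was the pair of the SnRK2 gene MLOC_62759.3 and MLOC_59332.2. Whether the genes of a pair are near-identical copies was not tested, and the depths and libraries of these 14 events are uncertain for the single gene if they are.

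A few genes held 2 events. MLOC_10374.5 on LG10, described as a phospholipid-transporting ATPase, which moves lipids across membranes, had 2 exons with an acceptor 5 nt inside, in 6 and 5 libraries, at depths of 4.60 to 12.4 and of 3.58 to 11.9. In MLOC_44719.1 on LG06 an event of 4 nt was in 6 libraries (23.7 to 50.6) and one of 5 nt in 3 (11.1 to 22.1). In both genes the 2 events were on separate exons. MLOC_64860.1 on LG01 had a 28 nt exon with an acceptor 5 nt inside, listed in 7 libraries at 43.3 to 88.1, and an event of 4 nt on another exon in 2.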

How the data were processed

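Paired RNA-seq reads of embryos were aligned by the authors with SOAP2 2.21 to the Morex genome (IBSC). SOAPsplice 1.10 then called junctions on the reads left unaligned, with segments over 8 bp. The deposited A3S lists give, for each of the 3 exons of an event, the start, end, mean depth and a last value, not scaled for library size. The column note calls the last value a minimum depth, but it never exceeded 1, and in 100% of the 3534 annotated exons where it was under 1 its product with the exon length was whole (within 0.01), so it was read as the share of bases covered. In partly covered exons under 300 nt, depth times covered bases was whole (within 0.02) in 98.1% of annotated exons and depth times length in 100% of alternative exons, so the first depth was taken per covered base and the second per base. Stretch and relative depths rest on this reading. How exon depth was computed is not given in the sources used here. Coordinates are those of the deposited lists, and no sample column was left out.

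Events were counted with Python 3.11.15, pandas 2.3.3, numpy 2.4.6 and scipy 1.17.1 and drawn with matplotlib 3.10.9. Shares between varieties were compared by exact paired permutation tests (sign flips, two-sided). Stretch depth was computed from the depths of both exon forms, with values below 0 set to 0, and tested on the log2 scale with 0.5 added by limma 3.58.1 (R 4.3.3). Variety was the block, and p-values were adjusted after Benjamini and Hochberg over 136 events. Below 0 were 68 of 1088 values, and 10 of 104 in the 4 or 5 nt events. Both procedures were tested on simulated data. The samples pair by the variety in the labels. The correlation of deviations within a variety was from -0.28 to 0.38 for relative depth and from -0.063 to 0.091 for exon depth.

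The events, groups and gene lists were chosen with earlier results of these data known. Named were events in all 8 libraries (the 12 deepest), the 4 deepest in at least 3 libraries, up to 5 per time in at least 3 varieties at that time only, those past the threshold in a limma fit, events in 10 genes taken from the study's text, up to 5 genes with 2 events by libraries, widely listed exons with a further acceptor and up to 4 events per description group. Comparisons of 5 with 4 nt, longer with shorter and with other distances by recurrence were added after seeing the data. Alternatives were a depth minimum of 10, either distance alone, acceptor coordinates in place of lengths, other variety minimums, each variety left out (with listing recounted over the other varieties or, added after seeing the data, over all 4), a prior of 1, no block, no centring and the upstream exon. A5S lists were used only to find genes with both types. Genome sequence was not used here.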

Additional observations from a re-analysis of the deposited data

Results flagged for a closer look

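In Bass at 24 h the annotated exon of MLOC_58938.3, which is 18 nt long, had a depth of 87.0, while the other 3 varieties at 24 h lay between 52.4 and 55.3. The gap to the nearest variety was 0.92 of the whole range. This was 1 of 36 groups of 4 libraries examined, and chance gives about 1 in 20 such groups.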

How the results depend on the processing

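Of 216 alternative values, 199 were rated the same, 8 turned direction, 8 were counts of calls that moved further than 1.5 times and 1 was a weaker call. Differences were rated the same if they kept their direction, and counts of calls if they stayed within 1.5 times. A single event had to keep its direction and stay past its threshold. Of the 199, 36 changed in size by over 1.5 times. Among the comparisons set out first, 4 nt alone turned the difference in recurrence from other A3S events (1.22) to -6.09 points, and 5 nt alone gave 8.42. Events at 5 nt alone turned that in longer exons from 3 nt events to 6.73 and that in persistence to 1.87. Leaving out each variety gave -0.31 to 0.21 for longer exons against 3 nt (above 0 without Bass). For recurrence, leaving out a variety also meant that all 3 remaining varieties had to list an event: the difference from other A3S events was then -0.11 to 1.86 (below 0 without Baudin), and 5 nt minus 4 nt among longer events -4.83 without Bass, -9.99 without Stirling and -6.88 without Baudin. With listing still counted over 4 varieties, a choice made after seeing the data, these were 0.792 to 1.94 and 6.92 to 17.4. With 1 variety left out, the events per library at 48 h were 41.7 to 55.3 fewer.

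The count of 33 exon depth calls became 9 with the upstream exon, 43 without centring, which moves the median of all events by -0.14 on the log2 scale, and 14 to 24 with a variety left out (18 without Bass, 19 without Stirling, 14 without Baudin). Without the replicate block it was 42, and 3 events passed for relative depth, none of them of 4 or 5 nt; leaving out a variety gave 0 to 1. The fall in MLOC_62518.2 ranged from -1.73 to -1.11 with a variety left out and was -1.42 without the block (adjusted p = 0.031, limma); with the upstream exon it was -0.50 and not called. MLOC_4847.3 also passed without centring and MLOC_71896.1 without Bass and, at 1.16 higher (adjusted p = 0.026), with the upstream exon. Under a depth of 10 were 31.5% of the events, and a minimum depth of 10 turned no direction.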
